A study of Mus musculus with 4 samples.

Results

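The transcripts described here encode NRF2 and the proteins that hold it, pair with it or compete with it: the transcription factors NRF2 (Nfe2l2) and NRF1 (Nfe2l1), the ubiquitin ligase made of KEAP1, CUL3 and RBX1, the small MAF proteins MAFG, MAFF and MAFK, the repressor BACH1 and the autophagy receptor SQSTM1. Members were the probes annotated with a RefSeq transcript of one of these 10 genes, which gave 13 of the 41174 probes on the array. All 10 genes were among the 15537 genes tested, of which 10953 carry a gene symbol. The other 4584 are counted under an accession or probe name. RNA came from Hepa1c1c7 cells, a line derived from a mouse hepatoma, in 4 samples. In 2 of them the cells had received 100 µM diethyl maleate (DEM), an electrophile that consumes glutathione and is used to activate NRF2, and in the other 2 the solvent dimethyl sulfoxide (DMSO), for 6 hours in each case. No group carries a gene deletion or transgene, and separate cultures for the samples of a group are not stated in the labels, so the p-values rest on variation among these 4 samples and it may be technical only.

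In unstressed cells KEAP1 binds NRF2 and presents it to a ligase built on CUL3 and RBX1, which marks it for the proteasome. Electrophiles modify cysteines of KEAP1, NRF2 escapes and builds up, and it binds antioxidant response elements as a dimer with a small MAF protein. BACH1 forms dimers with the same small MAF proteins on overlapping DNA sites and represses there, and SQSTM1 can sequester KEAP1 for autophagy. The arrays measure transcripts, so they show whether the genes of this circuit changed in mRNA level, not how much NRF2 protein the cells held.

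Between 20744 and 21659 probes (50.4% to 52.6%) were well above background on each array, and 0 spots were saturated. In the whole table limma called 111 genes higher and 79 lower in DEM at a Benjamini-Hochberg adjusted p under 0.05, which is 1.22% of all genes tested (0.714% higher and 0.508% lower). Rises made up 58.4% of these calls, against 71.3% with arrays scaled on their median and 34.9% with arrays scaled on spike-in probes. The median log2 change of all genes was −0.01, and median scaling moved it to 0.14. Of the hepatocyte and hepatoma markers named on the array, 5 of 9 were well above background on all 4 arrays (albumin, alpha-fetoprotein, transferrin and the keratins Krt8 and Krt18), while Apoa1, Ttr and Hnf4a were on 0 arrays. Of the fibroblast and stellate markers 5 of 6 were well above background on all 4 arrays (Col1a1, Col3a1, Pdgfrb, Des and Acta2), of the cholangiocyte markers 3 of 4 (Krt19, Krt7 and Sox9) and of the leukocyte and macrophage markers 2 of 5 (Csf1r and Cd14). The endothelial markers Pecam1, Cdh5, Kdr and Tek were on 0 arrays, and 0 markers of the 5 cell types examined were called by limma. Because these are bulk samples, fewer cells of a type and less RNA per cell cannot be told apart. The labels' extraction text speaks of liver, whereas every other label names the cell line.

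After DEM, the transcript of SQSTM1 rose, those of KEAP1, BACH1, MAFG and MAFK were measured higher without passing the threshold over all genes, and that of NRF2 itself differed by 0.05 on the log2 scale, less than the gap of 0.16 between the DEM replicates and more than that of 0.0085 between the DMSO replicates. Of the 10 members limma called 1 higher and 0 lower (10%, against 1.22% of all genes tested), and 6 had an unadjusted p under 0.05 (5 with higher and 1 with lower signal in DEM), against 19.2% of all genes (9.02% and 10.2%). For 6 of the 10 members the DEM arrays did not overlap the DMSO arrays, 5 above and 1 below, and this held for 50.6% of all genes tested, 24.9% above and 25.6% below. The median log2 change of the members was 0.32. The 10 genes were picked with earlier results of these arrays known, so these counts are a description. All 13 probes were well above background on all 4 arrays, and 0 carried an outlier or saturation flag.

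**Figure D1:**
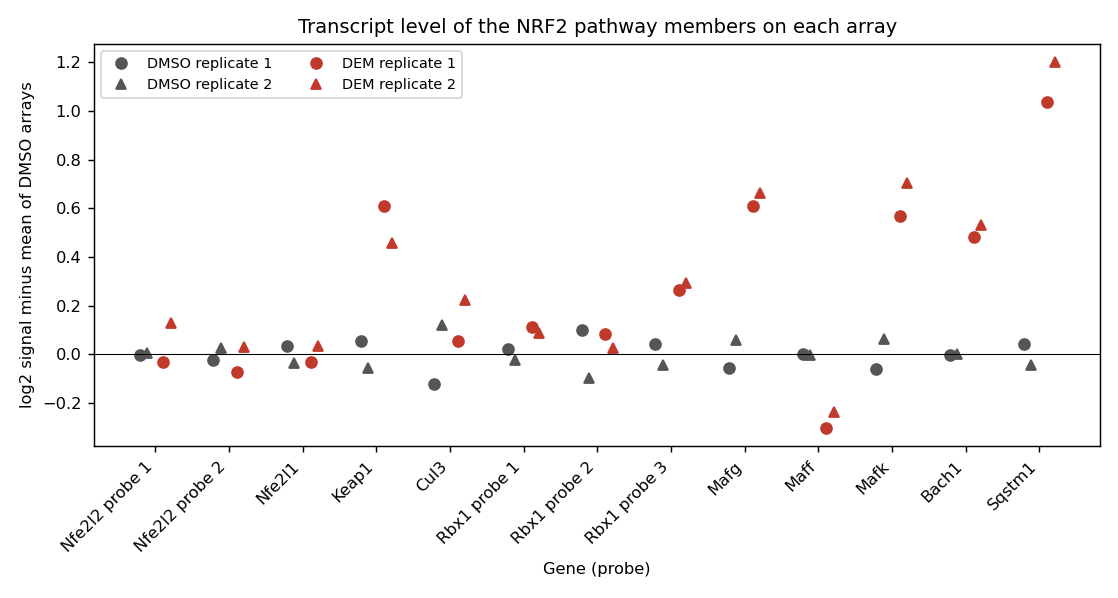
Each point is 1 array, plotted as its log2 signal (after division by the 75th percentile of the array) minus the mean of the 2 DMSO arrays for the same probe, with DMSO in grey and DEM in red. Both DEM arrays lie above both DMSO arrays for Keap1, Mafg, Mafk, Bach1, Sqstm1 and the probes 1 and 3 of Rbx1, and below them for Maff. The groups overlap for Nfe2l1, Cul3, the probe 2 of Rbx1 and both probes of Nfe2l2. For Nfe2l2 the 2 DEM arrays lie on either side of the DMSO arrays.

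Nfe2l2, the gene of NRF2, was measured by 2 probes. The first (A_51_P411271) read processed signals of 9660 and 9370 on the DMSO arrays and 9750 and 10500 on the DEM arrays. After scaling its log2 levels were 4.18 and 4.19 in DMSO and 4.15 and 4.31 in DEM, so the groups overlapped. The log2 change was 0.05 ± 0.10 (SE, n = 2 arrays per group), with a 95% interval from −0.22 to 0.31, that is from 0.861-fold to 1.24-fold (limma adjusted p = 0.845). The second probe (A_52_P396436) read 8370 and 8360 in DMSO and 8330 and 8640 in DEM and gave a log2 change of −0.02 ± 0.09. Its 95% interval ran from −0.27 to 0.23. The sign of the first probe turned to −0.00 with quantile normalization and −0.03 with spike-in scaling or without DEM replicate 2.

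Nfe2l1 encodes NRF1, a relative of NRF2 anchored in the endoplasmic reticulum and known for driving proteasome genes. Its probe (A_51_P491720) read 9380 and 8620 in DMSO and 9230 and 9300 in DEM. The log2 change was 0.00 ± 0.09, with an interval from −0.23 to 0.24 (limma adjusted p = 0.995), and the groups overlapped. NRF2 and NRF1 transcripts were thus the members with the smallest measured changes together with Rbx1.

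The promoter of Nfe2l2 is shown because NRF2 is known to bind antioxidant response elements, including ones in its own gene, while the transcript differed little here. In the 300 bases that run from 250 before the start of the RefSeq transcript to 50 after it, TGACNNNGC, the core of the antioxidant response element, was searched on both strands. The window holds 1 match, TGACTCCGC, whose first base lies 240 bases before the start. It is printed from build GRCm38.p6, chr2:75704614-75704913, minus strand, with the match in capitals.
Nfe2l2 promoter: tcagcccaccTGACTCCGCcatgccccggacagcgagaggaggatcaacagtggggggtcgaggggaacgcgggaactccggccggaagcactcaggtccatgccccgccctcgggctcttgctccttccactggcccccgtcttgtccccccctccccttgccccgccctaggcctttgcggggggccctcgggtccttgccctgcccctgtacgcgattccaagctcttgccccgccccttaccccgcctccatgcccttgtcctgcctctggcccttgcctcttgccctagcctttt

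Keap1, the adaptor that holds NRF2 and carries the electrophile-sensing cysteines, was measured by 1 probe (A_51_P438666) and read 3680 and 3290 in DMSO and 5560 and 4830 in DEM. Both DEM arrays were above both DMSO arrays. The transcript was 1.45-fold higher, a log2 change of 0.53 ± 0.10 with an interval from 0.26 to 0.81, and limma did not call it over all genes (adjusted p = 0.105). Of all genes tested, 642 (4.13%) had a larger rise. Over the 15 alternatives the log2 change ran from 0.45 to 0.68, and 2 of the 15 called Keap1. The limma adjusted p ran from 0.0249 to 0.681. The highest came from spike-in scaling, where limma gave all 10 members the same SE of 0.28, so it does not reflect this gene's own spread. The highest adjusted p of Mafg, Mafk and Bach1 came from the same setting.

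Cul3, the scaffold on which KEAP1 presents NRF2 (probe A_52_P47645), read 1350 and 1540 in DMSO and 1570 and 1700 in DEM. After scaling the log2 levels were 1.34 and 1.59 in DMSO and 1.52 and 1.69 in DEM, so the groups overlapped. The log2 change was 0.14 ± 0.13, with an interval from −0.21 to 0.49 (limma adjusted p = 0.629), and it was 0.02 without DMSO replicate 1, the array with the lowest value. Cul3 had the widest interval of the 10 members.

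Rbx1, the RING subunit that recruits the ubiquitin-conjugating enzyme, was measured by 3 probes. The brightest (A_52_P437230), used for the gene, read 38900 and 32700 in DMSO and 39600 and 36700 in DEM, with a log2 change of 0.05 ± 0.11 (limma adjusted p = 0.837). A second probe (A_51_P326413) read 27300 and 25500 in DMSO and 29900 and 28300 in DEM, with a log2 change of 0.10 ± 0.09. Another (A_52_P676076) read 10000 and 9070 in DMSO and 12000 and 11800 in DEM, with a log2 change of 0.28 ± 0.09. That last probe was 1.21-fold higher with groups that did not overlap, and limma, run over all probes separately, did not call it (adjusted p = 0.219). The 3 probes carry the same transcript name, and why their values differ was not tested. Of the ligase genes, then, limma called 0 of 3. On the probes used for the genes, Keap1 alone had an unadjusted p under 0.05. The Rbx1 probe A_52_P676076, not used for the gene, had an unadjusted limma p of 0.0314.

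**Figure D2:**
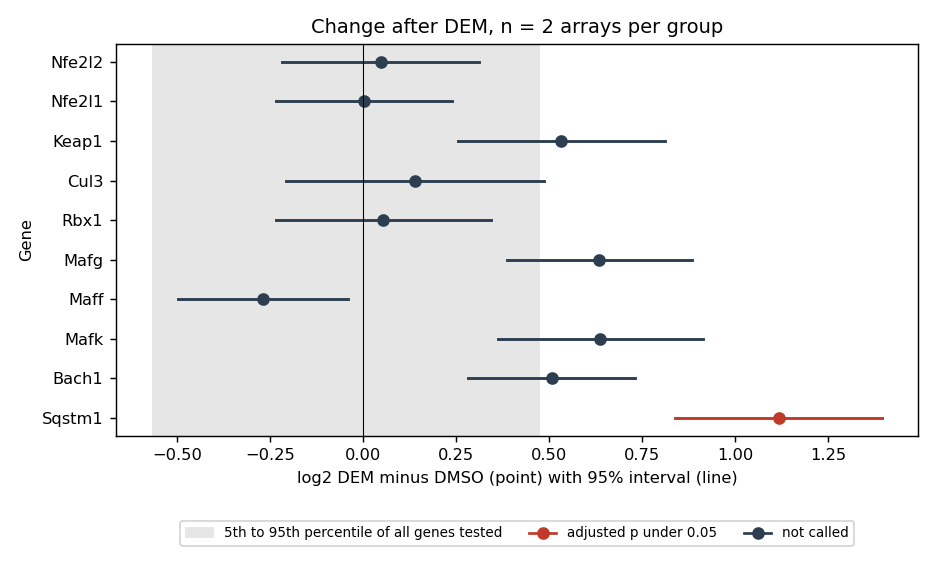
Points give the log2 change of DEM minus DMSO for the probe used for each gene and lines its 95% interval from the limma fit, red for an adjusted p under 0.05, and the grey band spans the 5th to 95th percentile of all genes tested (−0.57 to 0.47). Sqstm1 at 1.12, Mafg and Mafk at 0.64, Keap1 at 0.53 and Bach1 at 0.51 lie to the right of the band, and the intervals of Nfe2l2, Nfe2l1, Cul3 and Rbx1 include 0.

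The small MAF proteins have a DNA-binding leucine zipper and lack an activation domain, so a dimer of them alone represses, while a dimer with NRF2 activates. Mafg (probe A_52_P240754) read 2020 and 2110 in DMSO and 3300 on each DEM array. It was 1.55-fold higher, a log2 change of 0.64 ± 0.09 with an interval from 0.39 to 0.88, and limma did not call it over all genes (adjusted p = 0.0691). The lowest of the 4 ratios of a DEM array to a DMSO array was 1.47 and the highest 1.65. Larger rises were measured for 450 of all genes tested (2.90%).

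Mafk (probe A_51_P306183) read 847 and 889 in DMSO and 1350 and 1430 in DEM. It was also 1.56-fold higher, with a log2 change of 0.64 ± 0.10 and an interval from 0.36 to 0.91 (limma adjusted p = 0.0797, not called). Both DEM arrays were above both DMSO arrays for Mafg and for Mafk. Over the 15 alternatives the log2 change of Mafg ran from 0.56 to 0.78 and that of Mafk from 0.53 to 0.78. Each was called by 4 of the 15, with limma adjusted p from 0.0120 to 0.433 for Mafg and from 0.0177 to 0.427 for Mafk.

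Maff, the small MAF gene known for induction by cytokines and growth factors, was the 1 member measured lower. Its probe (A_52_P608322) read 5160 and 4960 in DMSO and 4300 and 4340 in DEM, and both DEM arrays were below both DMSO arrays. Its level in DEM was 0.830 times that in DMSO, a log2 change of −0.27 ± 0.09 with an interval from −0.50 to −0.04 (limma adjusted p = 0.209, not called), and −0.12 with median scaling. Of all genes tested, 15.6% had a larger fall. Its change thus has the opposite sign from those of Mafg and Mafk, and whether the changes of the 3 genes differ was not tested.

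The promoters of the 3 small MAF genes are shown because each has a match to TGACNNNGC while the measured changes of their transcripts differed in sign. In Mafg the match is TGACCGTGC on the strand opposite to the gene, 222 bases before the start (chr11:120633498-120633797, minus strand). In Mafk it is TGACACCGC, also on the opposite strand, 13 bases before the start (chr5:139791286-139791585, plus strand). In Maff it is TGACTCTGC on the gene's own strand, 112 bases before the first of 3 starts (chr15:79346371-79346670, plus strand), and the windows of the other 2 starts have 0 matches. Capitals mark the match, which reads as its reverse complement where it lies on the opposite strand. All are from build GRCm38.p6.
Mafg promoter: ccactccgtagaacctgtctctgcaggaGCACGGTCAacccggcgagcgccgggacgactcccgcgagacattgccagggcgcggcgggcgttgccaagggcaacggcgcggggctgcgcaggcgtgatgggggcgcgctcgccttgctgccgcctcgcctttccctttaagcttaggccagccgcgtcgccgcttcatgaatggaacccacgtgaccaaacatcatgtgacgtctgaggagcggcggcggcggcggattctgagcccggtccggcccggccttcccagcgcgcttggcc
Mafk promoter: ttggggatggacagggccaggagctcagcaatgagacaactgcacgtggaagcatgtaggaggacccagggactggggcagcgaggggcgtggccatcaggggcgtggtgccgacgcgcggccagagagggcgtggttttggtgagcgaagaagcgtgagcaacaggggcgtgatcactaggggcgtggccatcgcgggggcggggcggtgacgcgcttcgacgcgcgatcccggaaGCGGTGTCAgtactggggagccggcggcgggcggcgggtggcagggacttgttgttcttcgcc
Maff promoter: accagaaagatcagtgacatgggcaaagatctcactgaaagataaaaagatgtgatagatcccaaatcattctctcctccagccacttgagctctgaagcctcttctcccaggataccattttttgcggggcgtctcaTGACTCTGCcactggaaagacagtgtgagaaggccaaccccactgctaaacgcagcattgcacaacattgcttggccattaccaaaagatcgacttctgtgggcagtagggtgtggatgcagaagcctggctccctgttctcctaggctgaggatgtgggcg

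Across the table of RefSeq promoters, 12.4% of 32851 windows of this length hold TGACNNNGC. By gene it is 14.0% of 27025 genes, and 4 of the 10 members (Nfe2l2, Mafg, Maff and Mafk). Those 4 members had log2 changes of 0.05, 0.64, −0.27 and 0.64, and the 6 with 0 matches included Sqstm1, Keap1 and Bach1. A second motif, the MAF recognition sequence TGCTGAC, stands in 4.67% of windows and, among the members, in Nfe2l1 alone, in 3 of its 5 windows, which overlap one another and cover the same site. The 2 motifs share the letters TGAC and can overlap, which they did in 0 member windows. A match describes letters in a window and says nothing of binding, and a window with 0 matches says nothing of sites elsewhere.

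Bach1 encodes the repressor that competes with NRF2 for small MAF partners and is released from DNA by haem. It was the dimmest member (probe A_52_P412465), reading 386 and 373 in DMSO and 556 and 554 in DEM. The replicates lay close together, and both DEM arrays were above both DMSO arrays. Bach1 was 1.42-fold higher, a log2 change of 0.51 ± 0.08 with an interval from 0.28 to 0.73 (limma adjusted p = 0.0808, not called), and 702 genes (4.52%) had a larger rise. The log2 change was 0.34 after normexp background correction (offset 50) and 0.65 with median scaling. Median scaling shifts the log2 change of every gene by the same amount, so that difference is not particular to Bach1. Why the normexp value differs from 0.51 was not tested. Over the 15 alternatives limma called it in 1, with adjusted p from 0.0353 to 0.754. Hmox1, the haem oxygenase gene that BACH1 is best known for repressing, was 23.4-fold higher (limma adjusted p = 0.00442).

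Sqstm1 encodes p62, which binds ubiquitinated cargo and LC3 in autophagy and holds KEAP1 through a motif that resembles the KEAP1-binding motif of NRF2. Its probe (A_51_P119077) read 60100 and 54600 in DMSO and 123000 and 133000 in DEM. Every DEM array was at least 1.99 times, and at most 2.37 times, each DMSO array. Sqstm1 rose 2.17-fold, a log2 change of 1.12 ± 0.10 with an interval from 0.84 to 1.40, and limma called it (adjusted p = 0.0410). Of all genes tested, 136 (0.875%) had a larger rise. The log2 change of Sqstm1 ran from 1.03 to 1.26 over the 15 alternatives. The value table, intensity trend, replicate block, filters and probe rules left it at 1.12 by construction, so they do not test its size. Limma kept the call in 9 of the 15. With all arrays kept, the limma adjusted p ran from 9.82e-04 to 0.211. The value table and probe rules reuse the same Sqstm1 values, so the calls kept there add no separate evidence. With spike-in scaling the SE of 0.28 was common to the members, so that call does not reflect this gene's own spread.

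The call for Sqstm1 was lost whenever an array was left out, at little change in the value. Without DMSO replicate 1 the log2 change was 1.16 (limma adjusted p = 0.228), and without DMSO replicate 2 it was 1.07 (0.249). Without DEM replicate 1 it was 1.20 (limma adjusted p = 0.0538), and without DEM replicate 2 it was 1.03 (0.0786). With a DMSO array left out limma called 0 genes in the whole table. The call was also lost with the replicate number as a block (limma adjusted p = 0.0539) and without a filter on dim probes (0.211), with the value at 1.12 in each. The 95% interval of the fit with all 4 arrays ran from 1.79-fold to 2.63-fold.

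The promoter of Sqstm1 is shown as that of the called member, with 0 matches to TGACNNNGC or TGCTGAC in the window (build GRCm38.p6, chr11:50210771-50211070, minus strand).
Sqstm1 promoter: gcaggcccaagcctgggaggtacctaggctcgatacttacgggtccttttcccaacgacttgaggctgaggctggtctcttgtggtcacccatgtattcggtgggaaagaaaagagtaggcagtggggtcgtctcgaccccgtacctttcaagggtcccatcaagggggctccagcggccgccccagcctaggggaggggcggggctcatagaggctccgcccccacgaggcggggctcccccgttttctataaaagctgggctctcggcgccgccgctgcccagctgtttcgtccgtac

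The profiles nearest to Sqstm1 over the 4 arrays, among 10533 other genes with a symbol and well above background throughout, were those of Lrtm2, Aox1 and Pir. Their root mean square distances from it were 0.023, 0.033 and 0.037 on the log2 scale, and 15 genes lay within 0.10. Their log2 changes were 1.16, 1.13 and 1.17. Around Nfe2l2, by contrast, 3770 genes lay within 0.10, and the nearest were Irf2, Taok3 and Mbtps1 at distances of 0.0072 to 0.0080. With 4 arrays such nearness is a description.

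**Figure D3:**
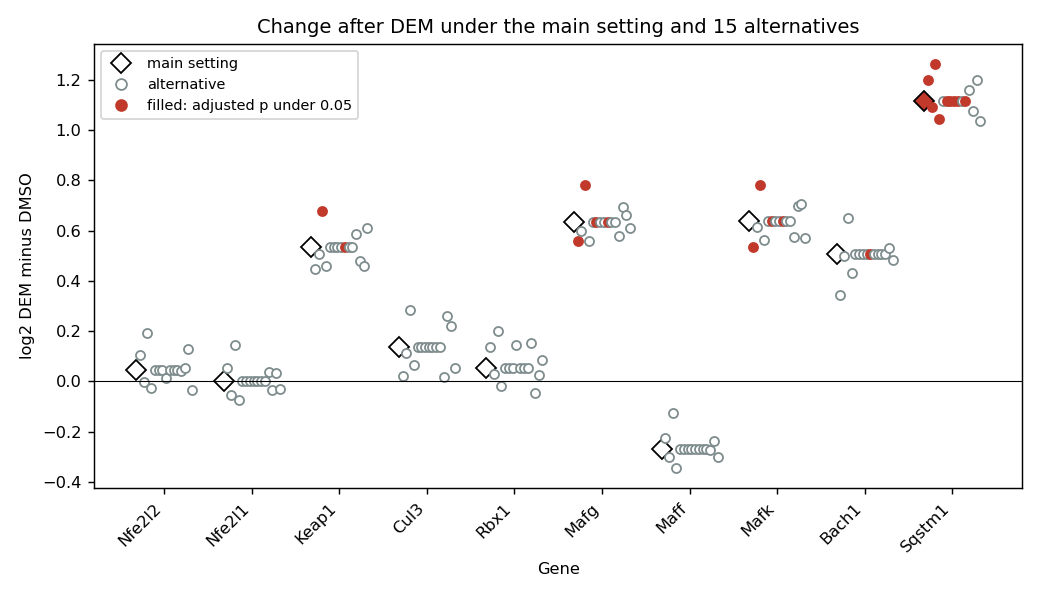
Diamonds give each member's log2 change of DEM minus DMSO in the main setting and circles that under each of 15 alternative settings, filled where the limma adjusted p was under 0.05. Sqstm1 stays between 1.03 and 1.26, Mafg, Mafk, Keap1 and Bach1 stay above 0 and are called by 1 to 4 alternatives each, and Nfe2l2, Nfe2l1 and Rbx1 fall on both sides of 0.

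Genes that act beside the members were examined in 7 lists of regulators. Of the 68 tested genes in them, limma called 1 higher and 2 lower, and the median log2 change was 0.05. Among the relatives of NRF2 and the small MAF proteins, 3 of 7 were tested and limma called 0 (1 had an unadjusted p under 0.05, with lower signal).

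Of 24 genes of the wider cullin ligase machinery (other cullins, NEDD8 and its enzymes, the COP9 signalosome and the CAND exchange factors), 1 was lower and 0 were higher, with a median of 0.05. The called gene was Cand2, an exchange factor for cullins, with log2 levels of −1.73 and −1.78 in DMSO and −2.56 and −2.61 in DEM. It fell by 0.83 on the log2 scale (SE 0.09, limma adjusted p = 0.0457). Its other probe gave −0.67 ± 0.14 without passing the threshold (limma adjusted p = 0.112), and the mean of both probes was not called either (−0.75, adjusted p = 0.0665). Cand2 lost its call with any 1 of the 4 arrays left out (−0.80 to −0.85, limma adjusted p from 0.0942 to 0.254), with quantile normalization (0.0561), with a replicate block (0.0539) and without a filter (0.215).

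Of 10 genes whose proteins are known to bind KEAP1, NRF2 or SQSTM1 or to stabilise NRF2, 1 was lower and 0 were higher, with a median of −0.14. For 6 of the 10 both DEM arrays were below both DMSO arrays, against 25.6% of all genes, and for 1 above. An unadjusted p under 0.05 was found for 3 with lower signal (Amer1, Palb2 and Trim21) and 1 with higher signal (Cdkn1a). Palb2 had a log2 change of −0.43 ± 0.15 and Trim21 one of −0.39 ± 0.12, and neither passed the threshold. The called gene was Amer1, which encodes WTX, a protein with a KEAP1-binding motif that can compete with NRF2. Its log2 levels were −1.63 and −1.59 in DMSO and −2.62 and −2.54 in DEM. It fell by 0.97 (SE 0.09, limma adjusted p = 0.0384), and with any 1 array left out the log2 change was −0.93 to −1.01 and the adjusted p 0.0788 to 0.244, so its call too was lost, as with quantile normalization (0.0501) and without a filter (0.209). Cdkn1a, which encodes p21, a cell cycle inhibitor that binds NRF2, stood at 0.79 ± 0.10 on the log2 scale and missed the threshold (limma adjusted p = 0.0541).

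KEAP1-independent turnover of NRF2, through beta-TrCP, GSK3 and the ligase HRD1, had 6 genes tested and 0 called by limma (0 at an unadjusted p under 0.05), with log2 changes from −0.04 to 0.22 and the largest in Syvn1, the gene of HRD1. Among genes that extract and process NRF1, 5 were tested and 0 called by limma, with a median of 0.31. Of these 5, 3 were higher at an unadjusted p under 0.05, against 9.02% of all genes. Ngly1, the N-glycanase that activates NRF1, had log2 levels of −1.35 and −1.38 in DMSO and −0.90 and −0.79 in DEM, a difference of 0.52 ± 0.09 that missed the threshold (limma adjusted p = 0.0883), and its second probe gave 0.58 ± 0.09. Coactivators and corepressors of NRF2 had 9 tested and 0 called by limma (1 in each direction had an unadjusted p under 0.05), with a median of 0.10. Rxra, a nuclear receptor that can repress NRF2, had the largest change there by the probe used, 0.38 ± 0.11, while its second probe gave 0.22 ± 0.14.

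Of 11 autophagy receptors and partners of SQSTM1, 1 was higher and 0 were lower, with a median of 0.16, and for 8 of them both DEM arrays were above both DMSO arrays, against 24.9% of all genes. Gabarapl1, an ATG8 protein that binds such receptors, had log2 levels of 5.95 and 5.80 in DMSO and 6.75 on each DEM array. It rose by 0.88 ± 0.10 (limma adjusted p = 0.0496) and its other probe by 0.92 ± 0.09 (0.0410). Gabarapl1 was not called with quantile normalization, spike-in scaling, a replicate block, no filter or any 1 of the 4 arrays left out (0.80 to 0.95, limma adjusted p from 0.0522 to 0.255). In all, 4 of the 11 had an unadjusted p under 0.05 with higher signal and 0 with lower signal, against 9.02% and 10.2% of all genes. Beside Gabarapl1 these were Tbk1 (0.39 ± 0.12), Traf6 (0.34 ± 0.10) and the receptor gene Calcoco1 (0.26 ± 0.08), none of them called. The receptor genes Nbr1 and Optn, which act beside SQSTM1, had the smallest changes of the 11, 0.01 ± 0.09 and −0.00 ± 0.12.

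Direct target genes of NRF2, antioxidant and detoxification genes whose promoters it is known to bind, were read on the same arrays. Where limma called 0.714% of all genes higher, it called 8 of these 8 target genes. Their log2 changes ran from 0.81 for Txnrd1, the cytosolic thioredoxin reductase, to 5.15 for Slc7a11, the cystine importer, with a median of 2.33. The value for Slc7a11 depends on the probe, since its other probes gave 3.82 and 4.58, and Hmox1 stood at 4.55. That list was written with these rises known. Limma called 6 of the 8 with a DEM array left out and 0 with a DMSO array left out. Within the same 4 arrays, then, the target transcripts rose by 1.76-fold to 35.5-fold on the probes used, the called member of the circuit by 2.17-fold, and the transcript of NRF2 had an interval of 0.861-fold to 1.24-fold.

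**Figure D4:**
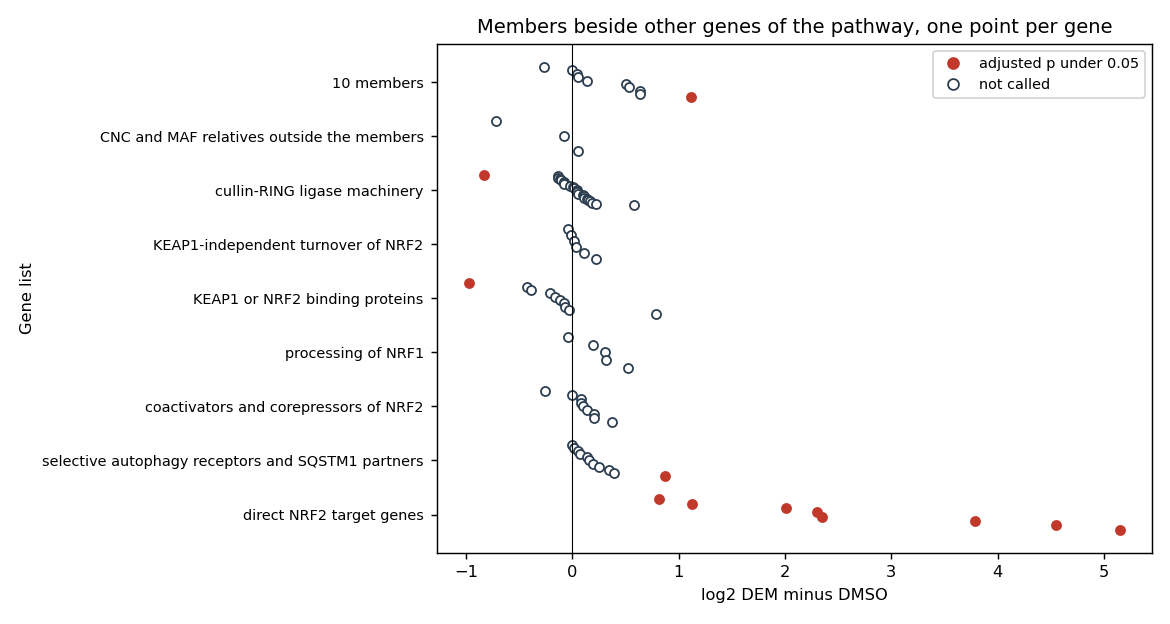
Each point is a gene's log2 change of DEM minus DMSO, placed in the row of its list and filled red where the limma adjusted p was under 0.05. The members run from −0.27 to 1.12, the 7 lists of regulators from −0.97 to 0.88 with 3 calls among 68 genes, and the 8 direct target genes from 0.81 to 5.15.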

How the data were processed

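Transcript levels were measured on 4 Agilent 1-colour arrays, 2 per group. The RNA input was 500 ng, amplified linearly and labelled with Cy3, per the labels. Per the file headers, Agilent Feature Extraction 10.7.3.1 was used, the design is annotated on mm9, and the arrays share 1 slide and 1 scan time, so neither could be tested as a batch. The values are the authors' deposited processed signals, an intensity on a linear scale after the scanner software's background subtraction, and the scanner files also give well-above-background, saturation and outlier flags. The deposited value table held the same intensity for all 45018 spots.

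From these, log2 signals were taken and the 75th percentile of the 43379 non-control spots of each array was subtracted. Spots flagged as outliers were dropped and the spots of a probe averaged. Probes were named through RefSeq transcripts (GRCm38.p6 table, names only), which gave 26690 probes 1 symbol. Probes entered the test if 2 or more arrays were well above background, and the brightest probe stood for its gene. DEM and DMSO were compared with limma 3.58.1 (lmFit, eBayes) in R 4.3.3 over all 15537 genes, with p-values adjusted after Benjamini and Hochberg and called under 0.05. The fit was tested on simulated data with 2 arrays per group and 200 genes changed. Each gene's spread was drawn from the same distribution at every signal level, so the shares below need not hold at a given level. Limma called 0.299% of the genes changed by 0.5 on the log2 scale. It called 23.6% of those changed by 1 and 85.1% of those changed by 2, and 5.38% of its calls were false. At the sizes measured for Keap1, Bach1, Mafg and Mafk, a missing call therefore does not show an unchanged gene. With 2 arrays per group, their number limits the precision.

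The named genes are all members, the called genes of each list (or the gene with the largest change) and the nearest profiles of Nfe2l2 and Sqstm1. One gene this rule selects is not reported here. Cdkn1a, Palb2, Trim21, Tbk1, Traf6, Calcoco1, Nbr1 and Optn were named after their values were seen. The members and lists were chosen with earlier results of these data known. Promoters of all 10 members come from RefSeq, build GRCm38.p6. Protein features were not analysed here. Alternatives were normexp (offset 50, on median spot and background signals), quantile, median and spike-in scaling, other filters and probe rules, an intensity trend, a replicate block, the value table and leaving out each array.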

Additional observations from a re-analysis of the deposited data

How the results depend on the processing

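The signs of Keap1, Cul3, Mafg, Maff, Mafk, Bach1 and Sqstm1 held under all 15 alternatives. The value table, the intensity trend and the replicate block cannot change a log2 change. For these genes, each with 1 probe well above background on all 4 arrays, neither can the filters or probe rules. Those settings therefore do not test the sign. Nfe2l2 turned to −0.0030 with quantile normalization and −0.028 with spike-in scaling, and ran from −0.032 (without DEM replicate 2) to 0.13 with an array left out. Nfe2l1 turned to −0.055 and −0.073 under the same 2 scalings and ran from −0.033 (without DMSO replicate 2) to 0.036 with an array left out, being −0.030 without DEM replicate 2. Rbx1 turned to −0.020 with spike-in scaling and ran from −0.044 (without DMSO replicate 2) to 0.15 with an array left out. Genes called higher and lower over the whole table were 437 and 370 with normexp, 61 and 32 with quantile normalization, 404 and 163 with median scaling, 198 and 370 with spike-in scaling, 230 and 196 with a filter on all 4 arrays and 415 and 311 with an intensity trend. Members called higher were 3 with normexp, 4 with median scaling, 3 with the filter on all 4 arrays and 5 with the trend. List genes here are counted over the regulator lists and the direct target genes together, with 9 higher and 2 lower in the main setting. Without a filter on dim probes limma called 0 genes in either direction (1246 rises and 1919 falls had an unadjusted p under 0.05), 0 members and 0 genes of the lists, and Sqstm1 was at 1.12 (adjusted p = 0.211). That setting tests 32288 genes. Leaving out each array gave 0 to 69 genes higher and 0 to 52 lower, 0 members, 0 to 6 list genes higher and 0 lower, and 1.03 to 1.20 for Sqstm1. There the lone array is assumed to vary like the pair in the other group. List genes called lower were 0 with quantile normalization and 1 with the mean of a gene's probes. Median scaling shifts the log2 change of every gene by the same amount. The median deposited signal of all spots was 16.2 and 16 in DMSO and 16 and 13.8 in DEM. The 75th percentiles of the non-control spots were 532 and 513 in DMSO and 547.5 and 528 in DEM. Why the counts differ between settings was not tested.

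The arrays of a group share replicate numbers with the other group, and their deviations correlated at 0.14 over all genes, with only 2 pairs, so the numbers were not taken to pair the samples. With the replicate number as a block limma called 74 genes higher and 69 lower, and 0 members. Over the regulator lists and direct target genes together it called 7 higher and 1 lower, against 9 and 2 in the main setting. Sqstm1 was at 1.12 (limma adjusted p = 0.0539).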

Other observations

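The antioxidant response element core TGACNNNGC was counted in the promoter windows of all genes tested that have one in the RefSeq table, as a description with no test. Of 8815 such genes, 17.1% held it. Of the 67 called higher in DEM with a promoter window, 20 held it (29.9%), and of the 39 called lower, 7 did (17.9%). The median log2 change was 0.03 over tested genes with the motif and 0.01 over those without it. Among the 8 direct target genes it was found for Gclm, Txnrd1 and Srxn1. The MAF recognition sequence TGCTGAC stood in 2 of the 67 (2.99%) and 3 of the 39 (7.69%), against 4.23% of genes tested. Base composition of the windows was not matched between these groups.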
